A study of Mus musculus with 12 samples.

Results

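The 10 transcription factors described here are Sox7, Sox17, Sox18, Sox11, Sox4, Nr2f2, Erg, Ets1, Klf2 and Klf4, chosen by symbol as Sox, Ets, Klf and nuclear receptor factors of vessel identity and flow. All 10 were among the 23306 gene symbols of the count table, and all 10 were among the 14792 that passed a filter on low counts. Polyadenylated RNA came from stromal cells of the thymus of C57 BL6 mice that carry a KitL-tomato reporter, in which a red fluorescent protein marks cells that use the Kit ligand gene. Viable lineage-negative cells that were CD31+ and EpCAM- made up the vascular endothelial cells (VEC), sorted with tomato signal (tomato+ VEC, 3 libraries) or without it (tomato- VEC, 3 libraries). The epithelial groups were CD31- EpCAM+: cortical cells gated as tomato+, UEA1- and Ly51+ (tomato+ cTEC, 3 libraries) and medullary cells gated as tomato-, UEA1+ and Ly51- (tomato- mTEC, 3 libraries). All groups come from the reporter strain, so no library is from mice without it. The labels give neither the age of the mice nor how many were pooled for a library. They also do not say that replicates were separate animals, and the p-values therefore cover the spread of these libraries only, which may be technical. Kitl itself stood at 1043 ± 436 CPM (SD, n = 3) in tomato+ VEC and 438 ± 40.7 in tomato- VEC, and at 222 ± 35.3 in tomato+ cTEC and 22.0 ± 15.9 in tomato- mTEC, in each pair without overlap.

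SoxF factors (Sox7, Sox17 and Sox18) bind DNA through an HMG box and act in the specification of endothelial cells, with Sox17 best known from arteries. Nr2f2, the nuclear receptor COUP-TFII, is known for holding venous identity and restraining Notch signalling in veins. The Ets factors Erg and Ets1 bind many endothelial promoters and enhancers, and Klf2 and Klf4 are zinc-finger factors that laminar blood flow induces in endothelium and that tissue dissociation can induce in many cells.

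Levels in CPM are counts scaled to library size after TMM normalization. A gene was called where the Benjamini-Hochberg adjusted p over all 14792 genes was under 0.05 in edgeR's quasi-likelihood test on all 12 libraries. Total counts per library were 8388869 to 11807130. Intervals and floors made from counts describe counting error alone. Marker genes followed the gates. The 8 endothelial markers summed to between 8640 and 11479 CPM in the VEC libraries. The 7 epithelial markers summed to between 0.779 and 1.82 CPM there, and Epcam was at 0 counts in tomato+ VEC. In the epithelial libraries the epithelial markers summed to between 3509 and 4552 CPM. Their endothelial markers summed to between 2.25 and 65.3 CPM, except for 389 CPM in tomato+ cTEC replicate 2. That library therefore held 4.09% of the mean endothelial marker level of the VEC libraries. For the factors whose epithelial call or direction changed without it, and for other genes whose stated epithelial call was lost, that value is also given. Other named genes changed too. Without it Elk3 (log2 -2.85, edgeR adjusted p = 0.00367) and S1pr1 (-1.62, 0.0379) were called lower in tomato+ cTEC than in tomato- mTEC. Lyve1 lost its call there (edgeR adjusted p = 0.115). Tie1, Pecam1, Esam, Eng and Mef2c, among others, turned from higher to lower without passing. On the third principal component tomato+ VEC replicate 3 lay at 30.8, below replicates 1 and 2 (98.0 and 136) and toward the tomato- VEC libraries (-118 to -77.2). In bulk samples, fewer cells of a type and less RNA per cell cannot be told apart.

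Most of the factors were higher in endothelium than in epithelium. Of the 10 factors 8 were higher in the VEC groups, none was lower and 2 did not pass, against 14.4% of all tested genes called higher, 21.8% called lower and 36.3% called in either direction. Here both groups of each lineage were given equal weight on the log scale. The median of the 10 log2 differences was 4.11, against -0.18 over all tested genes. Within endothelium the reporter contrast called 1 of the 10, Sox11, as higher in tomato+ VEC, against a background of 1.65% of genes (0.568% higher and 1.08% lower). Another 4 of the 10 had an unadjusted p under 0.05 there. Between tomato+ cTEC and tomato- mTEC, 4 of the 10 were called, 2 in each direction (background 7.83%, with 2.73% higher and 5.1% lower). The reporter there goes with the cortical gate and its absence with the medullary one, so their effects cannot be told apart.

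**Figure D1:**
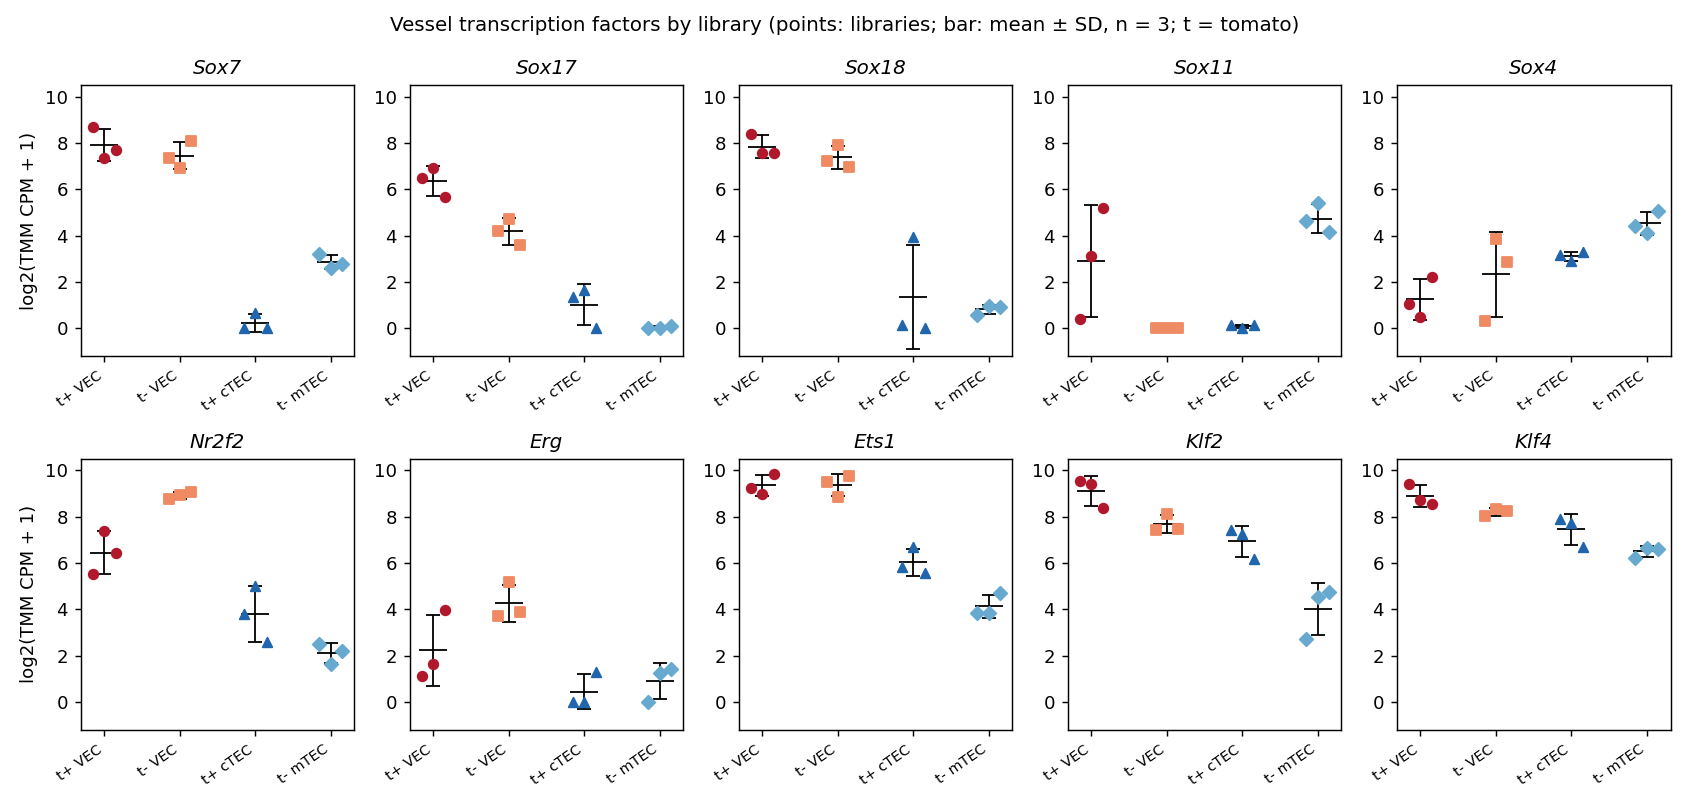
Levels of the 10 factors in the 12 libraries, as log2(TMM CPM + 1), with the mean and SD of each group (n = 3). Sox7, Sox17, Sox18, Nr2f2, Ets1, Klf2 and Klf4 have all 6 VEC libraries above all 6 epithelial ones, and Sox11 is near 0 in tomato- VEC and tomato+ cTEC.

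Per transcript length (deposited RPKM), Klf2 was the most abundant of the 10 in tomato+ VEC at 288 ± 110 RPKM (SD, n = 3). Klf4 (146 ± 48.1), Sox18 (131 ± 46.7), Ets1 (120 ± 39.0) and Sox7 (71.8 ± 36.1) followed, and each overlapped its neighbour in this order. Sox17 at 24.9 ± 10.3 and Nr2f2 at 21.2 ± 13.5 RPKM overlapped each other and none of the genes above or below them. Erg, Sox11 and Sox4 were lowest, at 2.45 ± 3.11, 1.56 ± 2.00 and 0.519 ± 0.531 RPKM. In tomato- VEC the order differed: Ets1 (128 ± 41.1 RPKM), Nr2f2 (109 ± 15.2), Klf2 (108 ± 30.8), Sox18 (99.5 ± 35.5), Klf4 (91.1 ± 11.7) and Sox7 (53.3 ± 24.1) led, each overlapping its neighbour. Below them without overlap came Erg at 8.65 ± 5.38 and Sox17 at 5.41 ± 2.11 with overlapping ranges. Nr2f2 thus held the seventh place in tomato+ VEC and the second in tomato- VEC. In tomato+ cTEC Klf2 (79.5 ± 32.7 RPKM) and Klf4 (67.4 ± 27.0) led with overlapping ranges, and in tomato- mTEC Klf4 (31.1 ± 4.36) led and did not overlap Klf2 (10.3 ± 6.24).

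Of the 3 SoxF genes, Sox17 was the 1 whose libraries separated by reporter in endothelium. It stood at 89.6, 121 and 49.2 CPM in tomato+ VEC replicates 1, 2 and 3, and at 17.5, 25.6 and 11.1 CPM in tomato- VEC. All 3 tomato+ libraries were above all 3 tomato- libraries, a separation that 15.8% of tested genes showed (7.46% higher, 8.32% lower). The difference was log2 2.26 (SE 0.97, 95% interval 0.15 to 4.37) and did not pass (edgeR adjusted p = 0.275). In epithelium Sox17 was nearly absent, with 39 counts over the 3 tomato+ cTEC libraries and 1 count over the 3 tomato- mTEC libraries. That ratio of 37.6 has a counting interval of 6.36 to 1521, and the difference did not pass (edgeR adjusted p = 0.0523). It passed without tomato+ cTEC replicate 3, the library of that group with 0 counts (edgeR adjusted p = 0.00810), without the low-count filter (0.0459) and in DESeq2 (0.00889). Without tomato+ cTEC replicate 2 the edgeR adjusted p was 0.147. In tomato+ cTEC replicate 1, Sox17 held 2.98% of its mean VEC level while the endothelial markers held 0.205%. In tomato+ cTEC replicate 2 the figures were 4.12% and 4.09%.

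Sox18, known for its part in vascular and lymphatic development, did not separate the endothelial groups. Its levels were 336, 185 and 186 CPM in tomato+ VEC and 147, 243 and 125 CPM in tomato- VEC. The groups overlapped, with a log2 difference of 0.46 (SE 1.13, 95% interval -2.00 to 2.92, edgeR adjusted p = 0.911). In epithelium Sox18 was at 14.3 CPM in tomato+ cTEC replicate 2 and between 0 and 0.930 CPM elsewhere. Its level in that library was 7.03% of the VEC mean, beside 4.09% for the endothelial markers. With that library, Sox18 differed by log2 2.62 between tomato+ cTEC and tomato- mTEC, which did not pass (edgeR adjusted p = 0.312). Without it, the difference turned to log2 -3.77 and passed (edgeR adjusted p = 0.0387), so leaving out 1 library turned its sign. The direction was kept in 15 of the 17 alternative settings that gave an adjusted p. The 2 other tomato+ cTEC libraries held 1 and 0 counts, against 5, 8 and 11 in tomato- mTEC.

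Sox7, which acts with the other SoxF genes in vessel growth, also overlapped between the endothelial groups. It stood at 413, 162 and 206 CPM in tomato+ VEC and at 162, 120 and 268 CPM in tomato- VEC (log2 0.51, SE 0.60, 95% interval -0.80 to 1.82, edgeR adjusted p = 0.737). Unlike Sox17, it was detected in every tomato- mTEC library, at 8.20, 5.12 and 5.85 CPM. Tomato+ cTEC held 0, 6 and 0 counts of it, so the 2 epithelial groups did not overlap. Sox7 was lower in tomato+ cTEC by log2 -5.00 (SE 0.85, edgeR adjusted p = 0.00522). The call held in all 12 leave-outs of a single library, but in a fit of the 6 epithelial libraries alone the edgeR adjusted p was 0.0582. The tomato- mTEC level was 2.31% to 3.70% of the VEC mean, while the endothelial markers of those libraries were at 0.275% to 0.687%. Macrophage and dendritic markers, 7 of 7 with counts in tomato- mTEC and 6 of 7 in tomato+ cTEC (Fcgr1 at 0), summed to 358 to 405 and 9.80 to 159 CPM, and their part in the Sox7 difference was not tested.

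All 3 SoxF genes were higher in endothelium than in epithelium with no overlap of libraries, a separation shown by 7.49% of tested genes in that direction and by 9.49% in the other. The log2 differences were 7.59 for Sox7 (SE 0.60, edgeR adjusted p = 1.51e-06) and 7.41 for Sox17 (SE 0.93, edgeR adjusted p = 6.51e-05). Sox18 had 6.70 (SE 1.05, edgeR adjusted p = 0.000368). Per transcript length, Sox18 made up 56.4% to 59.3% of the summed SoxF RPKM in tomato+ VEC and 47.4% to 77.0% in tomato- VEC. Sox17 made up 7.90%, 19.0% and 8.11% in tomato+ VEC and 3.83%, 4.20% and 2.18% in tomato- VEC. Its share was higher in all 3 tomato+ libraries (exact permutation p = 0.1, two-sided, the smallest that 20 splits allow). In tomato- mTEC, Sox7 made up 73.2% to 89.4% of a summed SoxF level of at most 3.02 RPKM.

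Nr2f2 ran the other way from Sox17 in endothelium. It stood at 44.7, 168 and 84.8 CPM in tomato+ VEC and at 433, 494 and 534 CPM in tomato- VEC. The groups did not overlap and the tomato- libraries lay close together. The difference of log2 -2.30 (SE 0.61, 95% interval -3.62 to -0.97) did not pass in edgeR (adjusted p = 0.0842). It passed in DESeq2 (adjusted p = 0.00645) and in limma voom (adjusted p = 0.00137), and in edgeR without tomato+ cTEC replicate 2 (adjusted p = 0.0498). Within a library, the ratio of Nr2f2 to Sox17 RPKM was 0.370, 1.03 and 1.28 in tomato+ VEC and 18.4, 14.3 and 35.7 in tomato- VEC. The log2 of this ratio was -0.34 ± 0.96 and 4.40 ± 0.68 (SD, n = 3), a difference of -4.74 (exact permutation p = 0.1, two-sided, the smallest that 20 splits allow). This pair was singled out after the values were seen. Of the arterial markers 2 of 8, Hey1 and Efnb2, passed as higher in tomato+ VEC, against 0.568% of all genes. Of the venous markers 2 of 6, Darc and Vcam1, passed as lower, against 1.08% of all genes. The other venous markers, Nrp2 and Ephb4 among them, did not pass. The 8 arterial markers summed to 838 to 949 CPM in tomato+ VEC and 147 to 202 CPM in tomato- VEC. The 6 venous markers in the table summed to 683 to 1424 and 7361 to 7798 CPM. Lymphatic markers, which include Lyve1 at 0 counts in tomato+ VEC, summed to 49.8 to 62.7 and 262 to 378 CPM. Of the 5 tested, 3 passed as lower in tomato+ VEC, Ccl21a, Pdpn and Lyve1. The part of the lymphatic markers in the Nr2f2 difference was not tested.

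**Figure D2:**
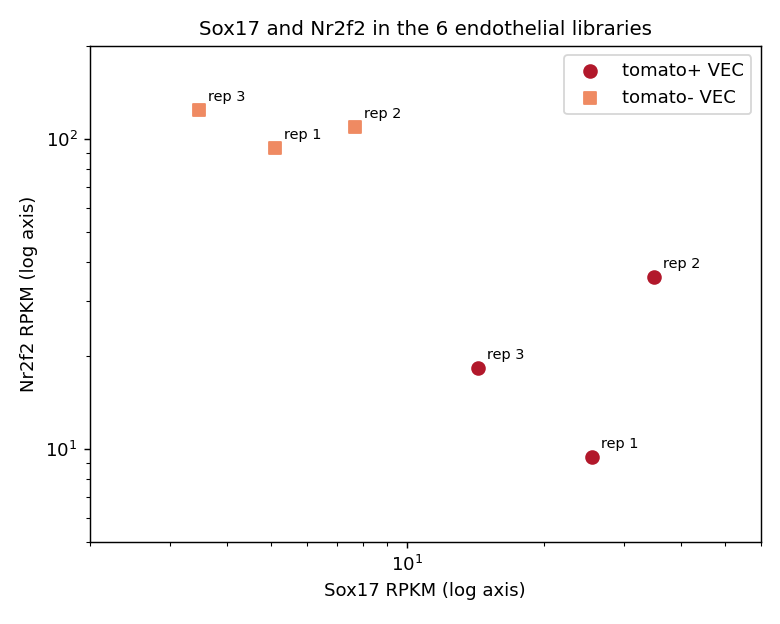
Sox17 (horizontal) and Nr2f2 (vertical) in RPKM on log axes for the 6 endothelial libraries, 1 point per library. The 3 tomato+ VEC libraries lie at Sox17 14.3 to 34.9 and Nr2f2 9.46 to 36.0 RPKM, and the 3 tomato- VEC libraries at 3.48 to 7.66 and 93.8 to 124 RPKM.

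In epithelium the order of Nr2f2 by reporter was the reverse. Tomato+ cTEC held 12.7, 31.3 and 4.94 CPM and tomato- mTEC 4.72, 2.09 and 3.53 CPM, without overlap. The difference of log2 2.23 (SE 0.63) did not pass (edgeR adjusted p = 0.0507). Without tomato+ cTEC replicate 2, the library with raised endothelial markers and the highest Nr2f2 of its group, it was log2 1.32 (edgeR adjusted p = 0.220). The settings in which it passed were those without tomato+ cTEC replicate 3 (0.0198), without tomato+ VEC replicates 1 or 2 (0.0430 and 0.0419), without the low-count filter (0.0363) and in DESeq2 (0.0106). In the other settings it did not, with adjusted p up to 0.401, in limma voom. The contrast in VEC differed from that in TEC by log2 -4.53 (SE 0.88), which passed (edgeR adjusted p = 0.0202, background 3.08%, of which 1.54% higher and 1.54% lower). Sox11 and Sox7 also passed this test, as higher, and the other 7 factors did not. The Nr2f2 call was lost without tomato- mTEC replicates 2 or 3 (edgeR adjusted p = 0.0579 and 0.0522). Without tomato+ cTEC replicate 2 the difference between the contrasts passed as well. Mesenchymal cells use Nr2f2 too. The 8 mesenchymal and pericyte markers, all with counts in both epithelial groups, summed to 1905 to 2286 CPM in tomato+ cTEC, 713 to 948 CPM in tomato- mTEC and at most 55.2 CPM in the VEC libraries. Dcn, at 1559 to 2057 CPM, made up most of the tomato+ cTEC sum. It was the 1 of the 8 called between the epithelial groups (log2 2.95, edgeR adjusted p = 0.0212). Rgs5 (-3.23), Pdgfrb (-2.99) and Acta2 (-0.56) were lower in tomato+ cTEC and the rest higher, without passing. The part of the mesenchymal markers in the Nr2f2 values was not tested. Nr2f2 was higher in endothelium than in epithelium by log2 4.87 (SE 0.49, edgeR adjusted p = 1.12e-05).

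The SoxC genes Sox11 and Sox4, known from progenitor and neural cells rather than from vessels, were the 2 factors not called higher in endothelium. Sox11 was at 0 counts in all 3 tomato- VEC libraries and at 3, 59 and 331 counts in tomato+ VEC, or 0.312, 7.72 and 35.5 CPM. It was at least 135-fold higher in tomato+ VEC, taking a floor of 3 counts over the tomato- group, and passed (edgeR adjusted p = 0.0433). The 3 tomato+ libraries differed widely, and replicate 3 held most of the counts. The call remained in 1 of the 12 leave-outs, that of tomato+ VEC replicate 1, and was lost in the other 11 (edgeR adjusted p 0.0515 to 0.103). It was also lost with the replicate number as a block (0.100), and among the 6 endothelial libraries alone the gene did not reach the count filter. In tomato- mTEC Sox11 stood at 23.8, 41.7 and 16.8 CPM, while tomato+ cTEC held 2 counts in all. The ratio of 423 (counting interval 117 to 3500) passed (edgeR adjusted p = 0.0207). It was lost without any tomato+ cTEC library or without tomato- mTEC replicates 1 or 2 (edgeR adjusted p 0.0553 to 0.0820). The summed epithelial markers were 1.66, 0.785 and 1.82 CPM in tomato+ VEC replicates 1, 2 and 3, against 3509 to 4199 CPM in tomato- mTEC. Replicate 3, with the most Sox11 counts, had the highest sum, 5 of the 7 markers having counts in it. Replicate 1, with the fewest Sox11 counts, had the next highest. The part of the epithelial markers in the Sox11 difference was not tested.

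Sox4 was low in all groups. It ranged from 0.392 to 3.64 CPM in tomato+ VEC, from 0.223 to 13.3 CPM in tomato- VEC, from 6.47 to 8.66 CPM in tomato+ cTEC and from 16.2 to 32.5 CPM in tomato- mTEC. The endothelial groups overlapped (log2 -1.94, SE 1.16, edgeR adjusted p = 0.446), with tomato- VEC replicate 1 at 2 counts against 125 and 55 in replicates 2 and 3. The epithelial groups did not overlap, as was so for 39% of tested genes (18.7% higher and 20.3% lower), and the difference of log2 -1.58 (SE 1.13) did not pass (edgeR adjusted p = 0.520). In a fit of the 6 epithelial libraries alone it passed (edgeR adjusted p = 0.0451). Between lineages Sox4 had log2 -1.99 (SE 0.81, edgeR adjusted p = 0.0772), and it passed as lower in endothelium without tomato+ VEC replicate 3 (0.0399), in DESeq2 (0.0147) and in limma voom (0.0135). Thymocytes also use Sox4. The 12 thymocyte markers summed to 81.5 to 144 CPM in tomato+ cTEC and 29.1 to 46.4 CPM in tomato- mTEC. Their sums were thus higher in tomato+ cTEC, where the Sox4 libraries lay below those of tomato- mTEC. The part of the thymocyte markers in the Sox4 values was not tested.

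Of the Ets factors, Ets1 was abundant in both endothelial groups, which overlapped. It stood at 605, 498 and 911 CPM in tomato+ VEC and at 731, 457 and 859 CPM in tomato- VEC. The log2 difference was -0.02 (SE 0.38) with a 95% interval of -0.84 to 0.80 (edgeR adjusted p = 1). Its sign changed in 8 of 19 alternative settings. Endothelium was above epithelium by log2 4.30 (SE 0.31, edgeR adjusted p = 6.35e-07), the smallest p among the 10 factors. In epithelium Ets1 stood at 56.0, 102 and 45.9 CPM in tomato+ cTEC and at 13.4, 13.4 and 25.2 CPM in tomato- mTEC. It was higher in tomato+ cTEC by log2 1.97 (SE 0.39, edgeR adjusted p = 0.0122). That call was lost without tomato- mTEC replicates 1 or 2 (edgeR adjusted p = 0.0623 and 0.0600) and in limma voom (0.209). T cells use Ets1 as well. All 12 thymocyte markers had counts in tomato+ cTEC and 10 of 12 in tomato- mTEC, where Cd8a and Rag2 were at 0. Their sums, given above for Sox4, were higher in tomato+ cTEC, and their part in the Ets1 difference was not tested. The tomato+ cTEC library with the highest thymocyte sum was replicate 1. That with the highest Ets1 was replicate 2, the library with raised endothelial markers. Without replicate 2 the Ets1 difference was log2 1.53 and still passed (edgeR adjusted p = 0.0456).

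Erg, an Ets factor used to mark endothelial nuclei, had few counts in these libraries. It stood at 1.14, 2.09 and 14.7 CPM in tomato+ VEC and at 12.2, 35.1 and 13.7 CPM in tomato- VEC. The groups overlapped through tomato+ VEC replicate 3 alone, and the difference did not pass (log2 -1.76, SE 1.67, 95% interval -5.40 to 1.87, edgeR adjusted p = 0.656). The highest epithelial library held 1.68 CPM, above the lowest VEC library. Erg was higher in endothelium by log2 3.93 (SE 1.30, edgeR adjusted p = 0.0326). The call was lost in 7 of 12 leave-outs (edgeR adjusted p up to 0.0804), those of tomato+ VEC replicate 3, tomato- VEC replicate 2, tomato+ cTEC replicates 1 and 2 and each tomato- mTEC library. Its relative Fli1, by contrast, averaged 1437 ± 277 CPM (SD, n = 3) with the reporter and 1019 ± 137 CPM without it in VEC.

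**Figure D3:**
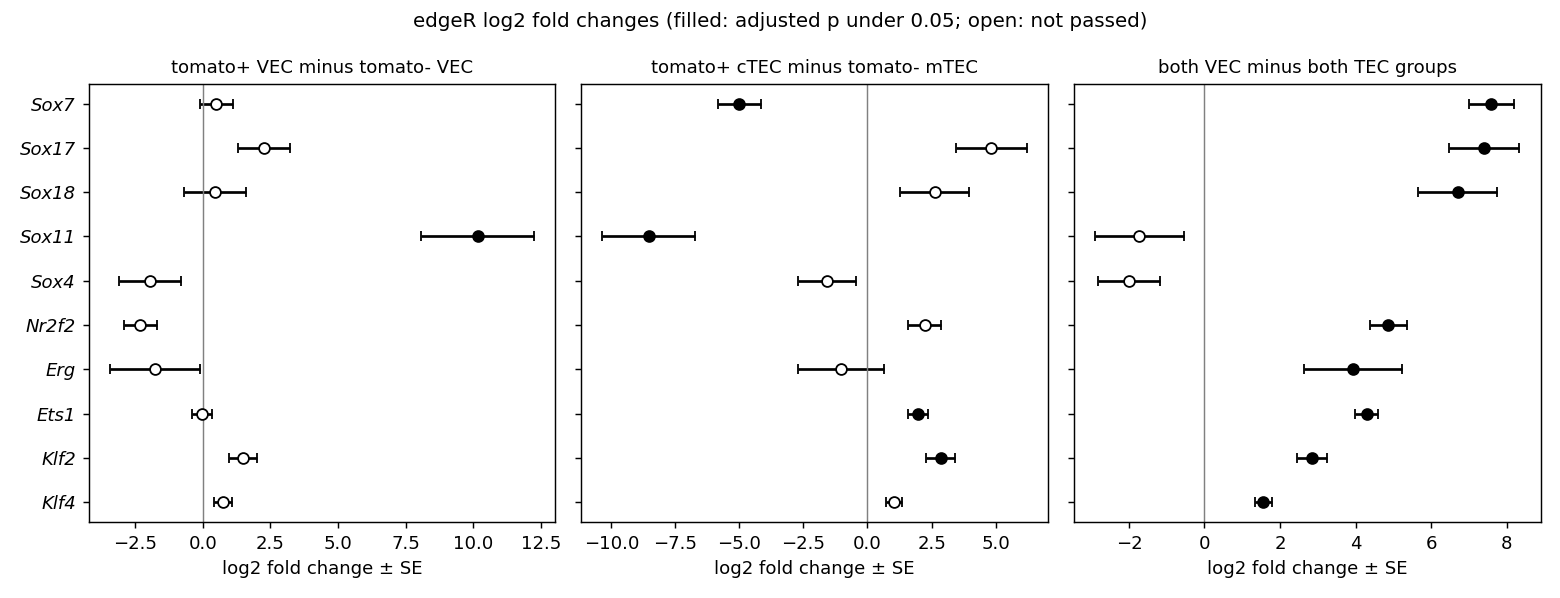
The edgeR log2 fold changes with SE for the 10 factors in 3 comparisons, with filled points for adjusted p under 0.05. The right panel has 8 filled points above 0, the left panel 1 (Sox11) and the middle panel 4; the fitted Sox11 values depend on groups at or near 0 counts.

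Klf2, the flow-induced factor, was highest in tomato+ VEC. It stood at 750, 670 and 325 CPM in tomato+ VEC and at 170, 277 and 175 CPM in tomato- VEC. The groups did not overlap, and the difference of log2 1.49 (SE 0.52, 95% interval 0.35 to 2.63) did not pass (edgeR adjusted p = 0.186). In epithelium it stood at 169, 150 and 70.6 CPM in tomato+ cTEC and at 5.50, 22.4 and 25.9 CPM in tomato- mTEC. It was higher in tomato+ cTEC by log2 2.85 (SE 0.55, edgeR adjusted p = 0.0104), a call that held in all 12 leave-outs and was lost in limma voom (0.0650). The contrasts in VEC and in TEC were not shown to differ (log2 -1.37, SE 0.73, edgeR adjusted p = 0.372). Between lineages Klf2 was higher in endothelium by log2 2.85 (SE 0.39, edgeR adjusted p = 0.000132), although the lowest VEC library (170 CPM) and the highest tomato+ cTEC library (169 CPM) lay side by side. Klf2 is also used by T cells, and the thymocyte and mesenchymal marker sums given above were higher in tomato+ cTEC as well, the latter mostly through Dcn. Their part in the Klf2 difference was not tested.

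Klf4, also induced by flow and used in epithelial barrier cells, kept the same order with smaller steps. Its levels were 685, 417 and 375 CPM in tomato+ VEC, 259, 319 and 302 CPM in tomato- VEC, 240, 211 and 103 CPM in tomato+ cTEC and 74.0, 99.99 and 96.9 CPM in tomato- mTEC. The 4 groups did not overlap in that order, with tomato+ cTEC replicate 3 just above the highest tomato- mTEC library. Neither contrast passed (VEC log2 0.75, SE 0.32, edgeR adjusted p = 0.278, and TEC log2 1.03, SE 0.32, edgeR adjusted p = 0.0767). The TEC contrast passed without tomato+ cTEC replicate 3 (edgeR adjusted p = 0.0228). Klf4 was higher in endothelium by log2 1.56 (SE 0.23, edgeR adjusted p = 0.000258). The ratio of Klf2 to Klf4 RPKM was 1.84, 2.69 and 1.45 in tomato+ VEC, 1.10, 1.45 and 0.970 in tomato- VEC, 1.15 to 1.19 in tomato+ cTEC and 0.125 to 0.448 in tomato- mTEC. Per length, Klf2 was thus below Klf4 in all 3 tomato- mTEC libraries.

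Stress and immediate early genes, which dissociation of tissue can induce, moved in part with the Klf genes. All 15 listed had counts in each group. In the endothelial reporter contrast 1 passed, against 1.65% of all genes. This was Hspa1a, a heat shock gene, with more in tomato+ VEC (log2 4.17, SE 0.86, edgeR adjusted p = 0.0323). Between the epithelial groups 4 passed (7.83% of all genes), Ier3, Nr4a1, Egr1 and Fosb, each with more in tomato+ cTEC. Without tomato+ cTEC replicate 2, Nr4a1, Egr1 and Fosb did not pass (edgeR adjusted p = 0.0637, 0.0896 and 0.123). By lineage, 10 of the 15 were higher in endothelium and none lower, beside 14.4% and 21.8% of all genes. The 15 genes summed to 17542, 17285 and 11293 CPM in tomato+ VEC and to 14498, 12049 and 9855 CPM in tomato- VEC, with overlap. In tomato+ cTEC the sum was 8057 to 9484 CPM and in tomato- mTEC 3887 to 6541 CPM, without overlap. Tomato+ VEC replicate 3 had both the lowest Klf2 and the lowest stress sum of its group. Tomato- VEC replicate 1, with a stress sum above tomato+ VEC replicate 3, had less Klf2 than that library (170 against 325 CPM). The part of dissociation in the Klf values was not tested.

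**Figure D4:**
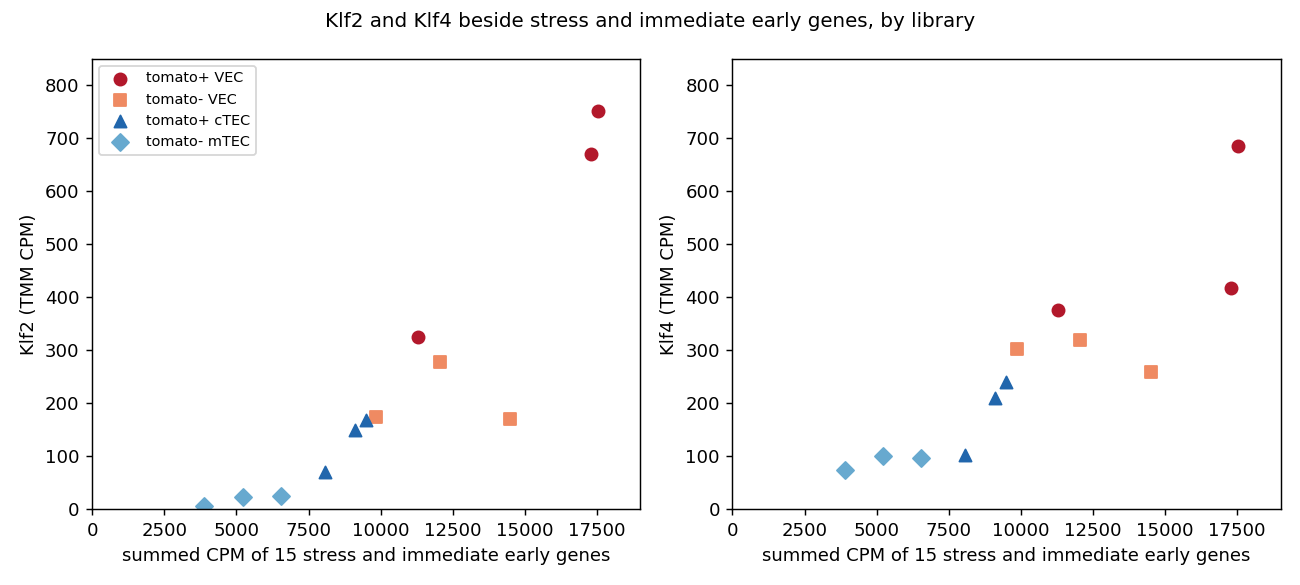
Klf2 (left) and Klf4 (right) in CPM against the summed CPM of 15 stress and immediate early genes, 1 point per library. The tomato- mTEC libraries are lowest on both axes of the Klf2 panel, and the tomato+ VEC libraries with sums of 17285 and 17542 CPM are highest on both.

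Klf2 and Klf4 took the same order over the 4 groups, so the 250 bases before their RefSeq start sites (GRCm38.p6) are shown, with capitals marking GC boxes (GGGCGG or its reverse complement CCGCCC), a letter string that zinc-finger factors of the Sp and Klf type can bind. The submitters' processing notes name another build, mm9, and no coordinate of that build is given here.
Klf2, chr8:72318812-72319061, plus strand: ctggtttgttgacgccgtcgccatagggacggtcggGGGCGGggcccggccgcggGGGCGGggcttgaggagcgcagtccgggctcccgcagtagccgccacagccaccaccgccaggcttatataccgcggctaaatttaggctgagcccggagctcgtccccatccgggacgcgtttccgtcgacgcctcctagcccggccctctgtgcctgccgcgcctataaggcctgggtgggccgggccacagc
Klf4, chr4:55532476-55532725, minus strand: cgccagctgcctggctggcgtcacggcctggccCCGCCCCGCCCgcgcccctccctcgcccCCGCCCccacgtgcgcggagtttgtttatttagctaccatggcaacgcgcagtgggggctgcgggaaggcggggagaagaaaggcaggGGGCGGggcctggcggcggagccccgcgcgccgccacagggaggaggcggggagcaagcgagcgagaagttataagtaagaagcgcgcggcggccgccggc
Klf2 had 2 matches and Klf4 had 4, a pair of which overlap. Of 32851 promoter windows of 250 bases, 32.7% held at least 1 match and 4.09% held 4 or more. Both windows were rich in G and C, at 71.2% and 74.0% of bases against a median of 52.4% over all windows. The table held windows for 6 of the 10 factors. Sox11 had 2 GC boxes, Erg 1 in its first window of 3, and Nr2f2 and Sox4 none. The CACCC string (either strand), also a Klf-type letter string, had 1 match before Klf2, 1 before Nr2f2, 2 before Sox11, 1 in each of 2 of the 3 Erg windows and none before Klf4 or Sox4, and 52.0% of all windows held it. The Ets core CCGGAA (either strand) was in none of the members' windows and in 12.0% of all. A match is only a description of the letters.

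Among other genes of these families, none of the 19 tested Ets genes, 8 tested Sox genes or 8 tested Nr2-group receptors passed in the endothelial reporter contrast (edgeR), in which 1.65% of all genes passed. At an unadjusted p under 0.05 there were 5, 0 and 1. DESeq2 called 2, 0 and 1 of them, and limma voom 0 of each. Of 13 other Klf genes 1 passed: Klf16 was lower in tomato+ VEC, at 0.219 ± 0.0906 against 10.1 ± 2.71 CPM as group means with SD. That was a log2 difference of -5.44 (SE 1.04, edgeR adjusted p = 0.0218). Klf10, which growth factors of the TGF-beta family induce, was at 381 ± 63.5 against 146 ± 47.3 CPM without passing (edgeR adjusted p = 0.0580). Median log2 differences were 0.14 for the Ets list, 0.86 for the Sox list, -0.50 for the Nr2 list and 0.27 for the Klf list, against 0 over all tested genes.

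Between lineages, 4 of the 19 other Ets genes were higher in endothelium and 5 lower. Fli1 (log2 8.26, SE 0.57, edgeR adjusted p = 5.41e-07), Ets2 (2.55) and Elk3 (4.34) were higher. Ehf, an epithelial Ets factor, was lower (log2 -7.35, edgeR adjusted p = 2.16e-05). Of 13 Klf genes 4 were higher and 3 lower, with Klf13 at log2 3.27 and Klf7 at 3.08, and with Klf5 at -7.45 and Klf15 at -5.70. Of 8 Sox genes 1 was higher, Sox13 (log2 3.38), and 3 were lower: Sox9 (-9.78), a factor of epithelial progenitors and cartilage, Sox21 (-6.49) and Sox30 (-4.72). Of the Nr2 group, Hnf4g and Rxrg were lower. Over all tested genes 14.4% were higher and 21.8% lower in endothelium. The median was -0.0011 for the Ets list, -0.11 for the Klf list and -1.70 for the Sox list. In epithelium Spib (log2 -5.99), known from mTEC, and Ehf (-4.25) were lower in tomato+ cTEC than in tomato- mTEC. Fli1 (3.77), Etv5 (5.51), Klf11 (2.86) and Klf9 (1.66) were higher there. In that contrast 7.83% of all genes passed. Fli1 stood at 32.1 CPM in tomato+ cTEC replicate 2 and at 4.07 and 7.61 CPM in the others, and without that library it was higher by log2 2.43 (edgeR adjusted p = 0.00964). Etv5 (5.34), Klf11 (2.92) and Klf9 (1.85) did not pass without it (edgeR adjusted p = 0.0992, 0.0826 and 0.0676).

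Of 25 other regulators tied to endothelial or blood-forming cells, 17 were higher in endothelium, 4 were lower and 4 did not pass, beside 14.4% higher and 21.8% lower over all genes. Hhex (log2 10.21, edgeR adjusted p = 1.27e-05), Mef2c (4.67), Epas1 (6.81) and Foxo1 (2.17) were among the higher. In the reporter contrast Hey1, a Notch effector of arteries, was the 1 of 25 to pass (1.65% of all genes). It held 1907 counts over tomato+ VEC and 3 over tomato- VEC (ratio 653, counting interval 223 to 3168, edgeR adjusted p = 0.00166). In epithelium 2 of the 25 passed (7.83% of all genes), Foxo1 (log2 1.80) and Epas1 (4.32), both as higher in tomato+ cTEC. Epas1 stood at 143 CPM in tomato+ cTEC replicate 2, the library with raised endothelial markers, and at 3.21 and 9.35 CPM in the others of that group. Without that library its difference was log2 1.26 and did not pass (edgeR adjusted p = 0.210).

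Genes linked to the factors as targets were then counted. Of 12 genes linked to SoxF factors, 11 were higher in endothelium and 1 did not pass (14.4% of all genes were higher), with Nrp1 (log2 4.71), Notch1 (1.89), Flt1 (6.13) and Kdr (8.13) among the 11. All 10 genes linked to Erg and Ets factors were higher in edgeR, with Robo4 (log2 8.62), Icam2 (6.12), Eng (7.33) and Tie1 (9.19) among them. Limma voom called 10 of the 10 and DESeq2 6, where genes without an adjusted p in DESeq2 count as not called. Endothelial markers are part of the Erg and Ets list, of the SoxF list (Kdr, Tek and Cldn5) and of the Klf list (Tek). Of 9 tested genes linked to Klf2 and Klf4, 8 were higher, with Thbd (log2 3.18), Sele (8.42), S1pr1 (5.81) and Edn1 (4.32) among them, and Itgb7, an integrin of lymphocytes, was lower. In the reporter contrast, which called 1.65% of all genes, 2 of the 12 SoxF-linked and 2 of the 9 Klf-linked genes passed. Efnb2, the arterial ephrin, and Thbd, which encodes thrombomodulin, were higher in tomato+ VEC, by log2 3.10 (SE 0.39, edgeR adjusted p = 0.00194) and 2.07 (SE 0.27, edgeR adjusted p = 0.00258). Vcam1, an adhesion molecule listed with both SoxF and Klf factors, was lower by log2 -1.48 (SE 0.33, edgeR adjusted p = 0.0490). Hey1 and Efnb2 are also in the arterial marker list, and Vcam1 in the venous one. In epithelium, where 7.83% of all genes passed, Nrp1 (log2 1.71), Dll4 (3.60), Kdr (6.33) and Acvrl1 (6.06) of the SoxF list and Thbd (3.36) of the Klf list were higher in tomato+ cTEC. The Kdr and Acvrl1 libraries overlapped there. Without tomato+ cTEC replicate 2, Kdr (log2 5.28, edgeR adjusted p = 0.0659), Acvrl1 (3.72, edgeR adjusted p = 0.188) and Nrp1 (1.55, edgeR adjusted p = 0.0525) did not pass. None of the 10 Erg- and Ets-linked genes passed in the endothelial reporter contrast (edgeR, 1 at an unadjusted p under 0.05; 0 in DESeq2, 2 in limma voom). Of 8 tested genes linked to Nr2f2, Hey1 was higher and Lyve1, a receptor of lymphatic vessels, lower in tomato+ VEC (0 counts against 55.6 ± 21.1 CPM, edgeR adjusted p = 0.00914). Between lineages 4 of these 8 were higher in endothelium, 2 were lower and 2 did not pass, beside 14.4% higher and 21.8% lower over all genes. Nrp1, Nrp2 (log2 6.03), Ephb4 (2.20) and Flt4 (6.29) were higher, and Hey1 and Hey2 were lower. The Hey1 call averages log levels with tomato- VEC, which held 3 counts of it in all. Hey1 had its highest mean in tomato+ VEC, at 76.3 ± 61.6 CPM (SD, n = 3). It stood at 49.0 ± 9.75 CPM in tomato+ cTEC and 16.4 ± 1.86 CPM in tomato- mTEC. Nrp2 and Ephb4 had log2 -0.20 and -0.13 in the reporter contrast without passing.

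**Figure D5:**
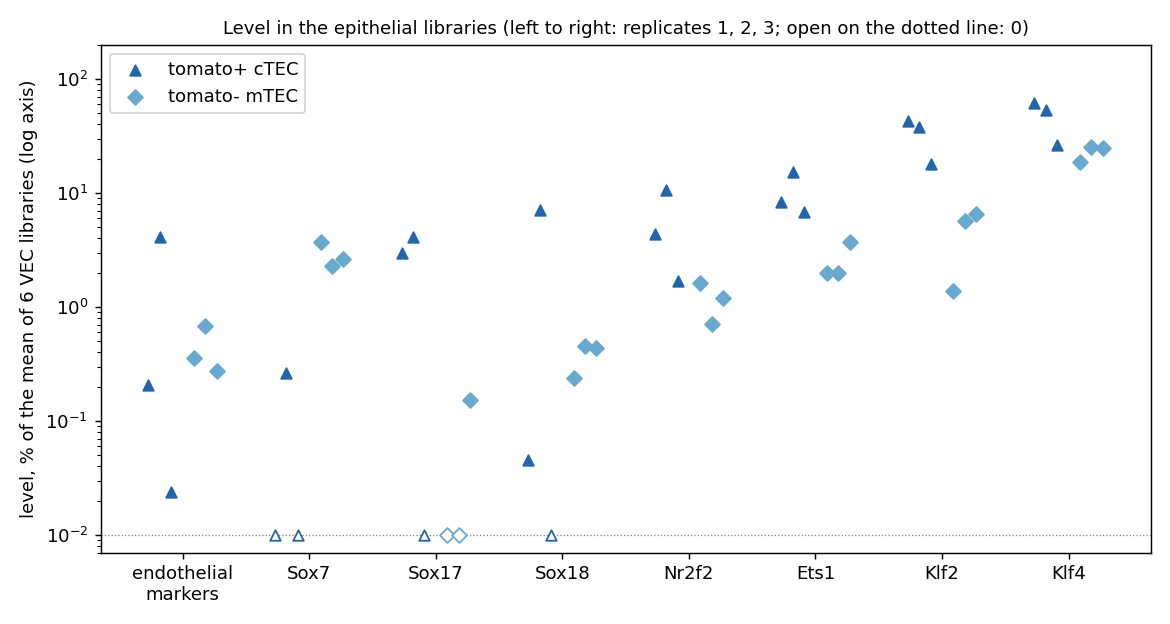
Level of the summed endothelial markers and of 7 factors in each epithelial library, as a percent of the mean of the 6 VEC libraries (log axis; open symbols on the dotted line are 0). Tomato+ cTEC replicate 2 stands out for the markers (4.09%) and Sox18 (7.03%), and Klf4 is at 18.8% or more in every epithelial library.

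The genes whose log2 CPM was most like a factor over the 12 libraries were taken among 10750 candidates by Pearson's r, as a description. The libraries fall into an endothelial and an epithelial cluster, which most of these values share. Sox18 was most like Gvin1 (r = 0.99), Pecam1 (0.98) and Esam (0.98). Pecam1 and Esam encode endothelial junction proteins. Sox17 was most like Nrp1 (0.99), St8sia4 (0.98) and Ltbp4 (0.98), and Sox7 most like Prcp, Uchl1 and Exoc6 (all 0.98). Ets1 was most like Gng11 (0.99), Sept4 (0.98) and Fli1 (0.98), and Nr2f2 most like Inhbb (0.99), Ehd4 (0.96) and Tll1 (0.96). Klf2 was most like Serpinh1 (0.98), Capn12 (0.97) and Slfn5 (0.96), and Klf4 most like Nosip (0.97), Gatad2a (0.97) and Midn (0.96). The lowest values were those of Erg with Tmed9 (0.93) and of Sox11 with Cflar (0.86). Among the factors themselves, r was 0.92 between Klf2 and Klf4, 0.935 between Sox17 and Ets1 and 0.605 between Klf4 and Nr2f2.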

How the data were processed

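Counts and RPKM of 12 libraries in 4 groups of 3 (titles) were used. Per the labels' protocols, cDNA was made with a SMARTer ultra-low input kit. Per the submitters' processing notes, TopHat2 2.0.10 and mm9 were used. The counter, its annotation and its use of strand are not given in the labels, so reads of antisense genes cannot be told apart. The deposited table holds raw counts and RPKM, per the file headers. All 180417 RPKM values with a count could be rebuilt from the counts, their column sums and a fixed length for each gene (relative tolerance 1e-06). No factor shared its counts with another symbol.

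The test was edgeR 4.0.16 (R 4.3.3): filterByExpr with a minimum count of 10, TMM, and a quasi-likelihood fit of the 4 groups to all 12 libraries (8 residual degrees of freedom). The SE is the log2 fold change over the square root of F. The lineage contrast averages log levels of the groups. Adjusted p-values are over all 14792 genes tested. Promoter sequences are RefSeq's (GRCm38.p6). Scripts were tested on simulated counts. Alternatives were DESeq2 1.42.0, voom of limma 3.58.1, relative log expression scaling, a block for the replicate number, a fit of only the 6 libraries compared, no filter, a filter of 5 CPM in 3 libraries, and leaving out each library. Per-length levels were also computed from TMM CPM.

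Named were the 10 factors, every list member called in the endothelial reporter contrast, up to 4 called members per list and other comparison, and the 3 genes most like each factor with a mean of at least 5 CPM. Some of the last and of the lists are given only in part. The genes most like Sox4 are not reported here. Klf10, Itgb7, Hey2, Pdgfrb and the Nr2f2 to Sox17 ratio were named after their values were seen. The factors and lists were chosen with earlier results of these data known.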

Additional observations from a re-analysis of the deposited data

Results flagged for a closer look

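Several genes differed between the endothelial reporter contrast (tomato+ VEC minus tomato- VEC) and the epithelial contrast (tomato+ cTEC minus tomato- mTEC), by an edgeR test of the difference itself. Among the 10 factors these were Sox11 (difference log2 18.71, edgeR adjusted p = 0.00799), Sox7 (5.51, edgeR adjusted p = 0.0192) and Nr2f2 (-4.53, edgeR adjusted p = 0.0202). The fitted Sox11 value rests on groups with 0 and 2 counts and is no estimate of size. Sox7 had log2 0.51 in VEC and -5.00 in TEC, and Nr2f2 had -2.30 and 2.23. The Sox7 difference was lost without tomato- mTEC replicate 1 (edgeR adjusted p = 0.0551), and that of Sox11 in no leave-out. Among the other listed genes, Hey1 had 9.30 in VEC and 1.58 in TEC (difference 7.72), Foxo1 -0.71 and 1.80 (-2.50), Ier3 0.16 and 1.91 (-1.75), Klf16 -5.44 and 0.26 (-5.70), Klf10 1.39 and -0.57 (1.95) and Efnb2 3.10 and 0.93 (2.18). Of all tested genes 3.08% passed this test. In epithelium the reporter changed together with the cortical or medullary gate, so the 2 contrasts are not of the reporter alone.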

How the results depend on the processing

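Over 733 recomputed values of the factors, 682 kept their side of the threshold, 32 calls were lost, 17 were gained and 2 were gained with a changed sign. Changes of sign between fits that both did not pass are counted as kept, among them those of Ets1 in VEC. The 2 gained with a changed sign were Sox18 in TEC (log2 -3.77, against 2.62) and its difference between the contrasts (4.28). Both were without tomato+ cTEC replicate 2, the library with raised endothelial markers. Over all alternative settings that gave an adjusted p, Sox18 ranged from log2 -3.77 to 3.26 in TEC and from -2.79 to 4.28 for the difference. In DESeq2 the called genes numbered 1253 in VEC, 1973 in TEC and 1418 for the difference, and in limma voom 601, 2219 and 1309, against 244, 1158 and 456. With only the 6 libraries compared they numbered 112 in VEC and 2487 in TEC. Of the factors, 2 were called in VEC by DESeq2 and 2 by voom, 6 in TEC by DESeq2 and without the filter against 2 by voom and 4 in the reported fit, and 0 in VEC with only the 6 libraries. Leaving out 1 library gave 174 to 394 genes and 0 to 1 factors in VEC, 428 to 1193 and 2 to 6 in TEC, 4568 to 5501 and 7 to 8 between lineages, and 159 to 491 and 2 to 4 for the difference. Nothing in the labels ties equal replicate numbers together. Same-numbered libraries had correlations of -0.02 to 0.07, below the 0.1 asked for pairing, yet 25 of 36 best matches were to the own number, a hint from the data and not from the design. With the replicate block 269 genes passed for the difference, and 0 factors in VEC. Other calls of the factors were kept under the block. Relative log expression scaling moved the median gene between lineages by log2 -0.13, and voom raised the share of higher calls for the difference from 50% to 64.7%. With only the 6 libraries that share in VEC was 47.3%, against 34.4%. Causes were not tested. At these depths, factors with few counts (Erg, Sox4, Sox11 and the SoxF genes in epithelium) limit what can be detected.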
